A study of Mus musculus with 6 samples.

Results

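The genes of 6 proteins that neutrophils store in their secondary (specific) and tertiary (gelatinase) granules were read in *Hoxa9*/*IRX3* and *Hoxa9*/MTV murine leukemias. They are *Ltf*, *Camp*, *Ngp*, *Lcn2*, *Mmp8* and *Mmp9*, chosen by name as contents of these granules, and each matched a single gene among the 41128 listed. All 6 were among the 9522 protein-coding genes that exceeded 0.5 RPKM (reads mapped to a gene, scaled by its length and by the depth of the library) in at least 1 library and were tested. Bone marrow (BM) KIT+ cells of female CD45.1+ donors were transduced with retroviral *Hoxa9* together with either the empty vector MTV or a human *IRX3* cDNA. They were transplanted with unsorted CD45.2+ BM cells into irradiated congenic CD45.2+ females, which developed AML. Donors and recipients were 6 to 12 weeks old when cells were taken or transplanted. Recipients were sampled later, when sick, and the paper reports a later onset of AML in the *Hoxa9*/*IRX3* cohort. The labels give the strain as C57BL/6, whereas the methods name the CD45.1+ mice as the congenic strain B6.SJL-Ptprca Pepcb/BoyJ and the CD45.2+ mice as C57BL/6. CD45.1+KIT+Gr1+ leukemia cells were sorted from the BM of sick animals, 3 of the *Hoxa9*/MTV cohort (mice 1.1, 1.2 and 1.4) and 3 of the *Hoxa9*/*IRX3* cohort (mice 3.2, 3.3 and 3.5), with 1 polyA RNA library from each mouse. Each leukemia arose in a separate recipient, and no mouse of one cohort is matched to a mouse of the other. The library sizes implied by the RPKM were between 7979246 (mouse 3.5) and 9803621 (mouse 3.3).

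Neutrophil granules are made in waves during granulocyte maturation. Azurophil granules with myeloperoxidase and serine proteases are filled in promyelocytes, specific granules with lactoferrin and cathelicidin in myelocytes and metamyelocytes, and gelatinase granules in band cells, and each protein is sorted largely by the time at which its gene is transcribed. C/EBP epsilon is required for the transcription of specific granule genes, and mice or people without it have neutrophils that lack these granules.

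The labels were first checked against the introduced and sorted markers. *Irx3* was listed at 0 in mice 1.1, 1.2 and 1.4 and at 15.1, 0.421 and 0.148 RPKM in mice 3.2, 3.3 and 3.5, where reads of the human cDNA could be counted only as far as they aligned to the mouse gene. *Hoxa9*, introduced in both cohorts, was at 340, 363 and 174 RPKM in the *Hoxa9*/MTV mice, against 242, 154 and 221 RPKM in the *Hoxa9*/*IRX3* mice, and *Ptprc*, which encodes CD45, was between 1.53 and 2.09 RPKM. *Kit* was read at 3.12, 2.64 and 2.48 RPKM in the *Hoxa9*/MTV mice, against 2.70, 1.63 and 2.14 RPKM in the *Hoxa9*/*IRX3* mice. *Ly6c2*, which encodes an antigen bound by antibodies to Gr1, was between 413 and 844 RPKM in the 6 mice. The other Gr1 antigen gene, *Ly6g*, was read at only 0.145, 0.124 and 0.0532 RPKM in the *Hoxa9*/MTV mice, against 1.42, 0.682 and 1.13 RPKM in the *Hoxa9*/*IRX3* mice. Transcripts of both sort markers were thus present in all 6 libraries, and *Ly6g* was higher in each *Hoxa9*/*IRX3* mouse than in each *Hoxa9*/MTV mouse (log2 fold change 1.35, SE 0.20, adjusted p = 0.0205 by limma). *Ly6g* passed the filter of 0.5 RPKM only through the *Hoxa9*/*IRX3* mice, where it was high. Its call was lost without mouse 1.1, 1.2 or 1.4 (adjusted p up to 0.102), with a pseudocount of 1 and with voom.

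None of the 6 granule genes was called different between the cohorts, where a call is an adjusted p under 0.05 by limma and at least a 2-fold change on the scale log2(RPKM + 0.5). Over all 9522 tested genes, 1.10% were called higher and 2.03% lower in *Hoxa9*/*IRX3* cells, and 0 of 6 lies near these shares. The median log2 fold change was -0.03 over the 6 genes and -0.06 over all tested genes, and 3 of the 6 estimates were positive and 3 negative. The median of the 6 rested on single mice, with 0.39 without mouse 3.3, 0.11 without mouse 1.2, -0.28 without mouse 3.2, -0.26 without mouse 3.5, -0.10 without mouse 1.1 and -0.09 without mouse 1.4. The unadjusted p was under 0.05 for 1 of the 6 genes and for 2315 of all those tested. The cohorts did not overlap for 1 of the 6, *Mmp9*, which was higher in *Hoxa9*/*IRX3* mice. Of all tested genes 12.2% did not overlap and were higher, and 21.6% did not overlap and were lower. The total of 105 higher and 193 lower calls fell when any of the 3 *Hoxa9*/MTV mice was left out. It came to 28 higher and 46 lower without mouse 1.1, to 25 and 41 without mouse 1.2 and to 24 and 37 without mouse 1.4. In bulk RNA, fewer cells of a maturing type and less RNA in each cell cannot be told apart, which holds for every level given here.

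**Figure D1:**
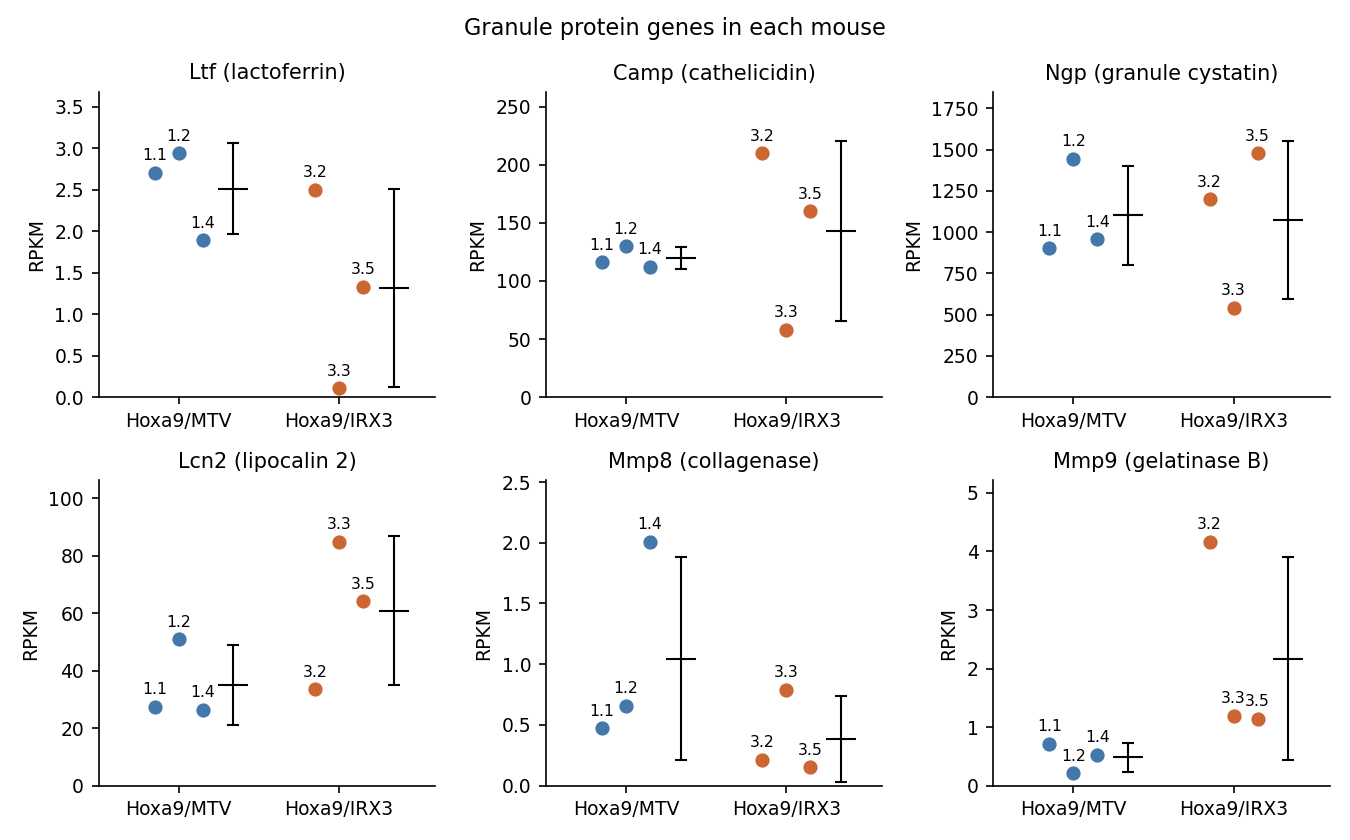
RPKM (vertical axes, each from 0) of the 6 granule genes in each mouse (points, numbered), with the cohort mean and SD (n = 3) as a bar beside them. Mouse 3.3 is lowest for *Ltf*, *Camp* and *Ngp* and highest for *Lcn2*, and *Mmp9* is the gene whose cohorts do not overlap.

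*Ltf*, *Camp* and *Ngp* are specific granule genes on chromosome 9. *Ltf* encodes lactoferrin, an iron-binding protein of the transferrin family (chr9:111019271-111042767 of GRCm38, plus strand, 18 exons). It was read at 2.70, 2.94 and 1.89 RPKM in mice 1.1, 1.2 and 1.4, against 2.5, 0.109 and 1.33 RPKM in mice 3.2, 3.3 and 3.5. The highest *Hoxa9*/MTV value was 1.56 times the lowest, whereas mouse 3.3 had 25 reads of *Ltf* against 520 in mouse 3.2, and the cohorts overlapped. The means were 2.51 ± 0.552 and 1.31 ± 1.20 RPKM (SD, n = 3 each). The log2 fold change was -0.99 (SE 0.55, 95% interval -2.31 to 0.33, adjusted p = 0.315 by limma), and it was -0.34 without mouse 3.3. The scale matters for a gene at this level, since the estimate was -1.55 per exon length and -1.89 with limma voom on the recovered reads. An exact permutation test over the mice gave a two-sided p of 0.2, where 3 mice against 3 allow none under 0.1.

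*Camp* encodes the only cathelicidin of the mouse, whose cleaved peptide kills bacteria (chr9:109847379-109849617, minus strand, 4 exons). Its level was 116, 130 and 112 RPKM in the *Hoxa9*/MTV mice, against 210, 58.0 and 160 RPKM in mice 3.2, 3.3 and 3.5. The *Hoxa9*/MTV values fell between those of mouse 3.3 and mouse 3.5, so that the *Hoxa9*/*IRX3* cohort spanned them on both sides. The highest value was 1.16 times the lowest in the *Hoxa9*/MTV cohort and 3.62 times the lowest in the *Hoxa9*/*IRX3* cohort. The log2 fold change was 0.07 (SE 0.46, 95% interval -1.02 to 1.17, adjusted p = 0.938), an interval that holds a 2-fold change in either direction. It was 0.62 without mouse 3.3 (adjusted p = 0.102), and it turned negative without mouse 3.2 (-0.30) or mouse 3.5 (-0.10). Among the other settings it was 0.00 with array weights, 0.11 with quantile normalization and 0.16 with median-of-ratios scaling.

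*Ngp*, the gene of neutrophilic granule protein, which is related to cystatins and cathelicidins (chr9:110419747-110423012, plus strand, 4 exons), was the most abundant of the 6. Its level was 903, 1446 and 957 RPKM in the *Hoxa9*/MTV mice, against 1199, 543 and 1480 RPKM in mice 3.2, 3.3 and 3.5. Mouse 3.3 was again the lowest of the 6 animals, and the highest values of the cohorts, those of mice 1.2 and 3.5, differed little. The log2 fold change was -0.13 (SE 0.40, 95% interval -1.07 to 0.82, adjusted p = 0.870). It was 0.31 without mouse 3.3 and 0.09 without mouse 1.2, and -0.42 without mouse 3.5. Quantile normalization gave -0.64 (adjusted p = 0.323) and median-of-ratios scaling -0.04.

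*Lcn2* encodes lipocalin 2, which withholds iron from bacteria by binding their siderophores (chr2:32384633-32388252, minus strand, 5 exons). It was read at 27.5, 51.0 and 26.5 RPKM in the *Hoxa9*/MTV mice, against 33.5, 85.0 and 64.2 RPKM in mice 3.2, 3.3 and 3.5. Here mouse 3.3 was the highest of the 6, opposite to its place for *Ltf*, *Camp* and *Ngp*, and the cohorts overlapped because mouse 1.2 lay above mouse 3.2. The log2 fold change was 0.76 (SE 0.40, 95% interval -0.21 to 1.72, adjusted p = 0.299), with 1.13 without mouse 3.2 and 0.47 without mouse 3.3.

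*Mmp8* and *Mmp9* encode metalloproteinases that are stored as inactive precursors. *Mmp8*, neutrophil collagenase of specific granules (chr9:7558456-7568485, plus strand, 10 exons), was read at 0.472, 0.658 and 2.01 RPKM in the *Hoxa9*/MTV mice, against 0.213, 0.791 and 0.150 RPKM in mice 3.2, 3.3 and 3.5. These values rest on 42, 55 and 196 reads and on 19, 78 and 12 reads. Mouse 1.4 stood above all other mice, and the cohorts overlapped. The log2 fold change was -0.75 (SE 0.42, 95% interval -1.76 to 0.26, adjusted p = 0.320), and -0.33 without mouse 1.4. It was -1.24 with a pseudocount of 0.1, -1.19 per exon length and -1.51 with voom, and none of these was called.

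*Mmp9*, the gelatinase B of tertiary granules (chr2:164940780-164955850, plus strand, 15 exons), was read at 0.713, 0.216 and 0.528 RPKM in the *Hoxa9*/MTV mice, against 4.17, 1.19 and 1.14 RPKM in mice 3.2, 3.3 and 3.5. The corresponding reads were 95, 27 and 77 against 557, 176 and 137. Each *Hoxa9*/*IRX3* mouse was above each *Hoxa9*/MTV mouse, with mouse 3.2 far above the rest. The means were 0.486 ± 0.251 and 2.17 ± 1.74 RPKM (SD, n = 3 each). The log2 fold change was 1.29 (SE 0.43, 95% interval 0.25 to 2.33, adjusted p = 0.137), which missed the limit on the adjusted p. The exact permutation test gave a two-sided p of 0.1, the smallest possible. Without mouse 3.2 the change was 0.79 (adjusted p = 0.104), and with voom on the recovered reads it was 2.00 (adjusted p = 0.181).

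**Figure D2:**
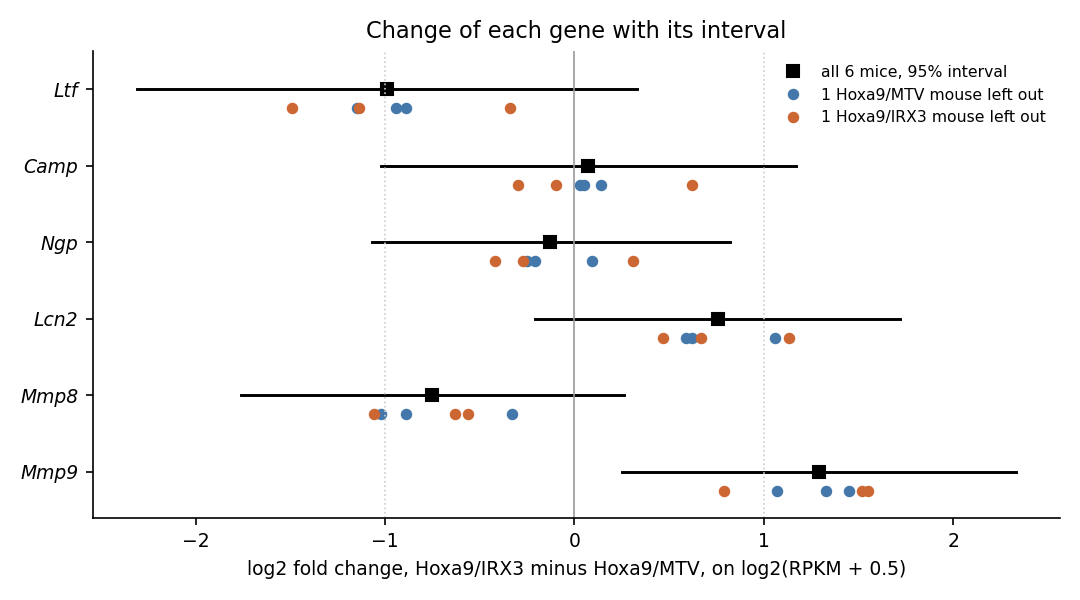
log2 fold change of each granule gene (horizontal axis, *Hoxa9*/*IRX3* minus *Hoxa9*/MTV on log2(RPKM + 0.5)) with its 95% interval (squares and lines), and the estimate with 1 mouse left out (points, colored by the cohort of that mouse). The interval of *Mmp9* lies above 0 before adjustment, those of the other 5 cross 0, and *Camp* and *Ngp* change sign with the mouse left out.

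Levels can be compared between the 6 genes only per length, because the RPKM divide by the whole gene with its introns. Exons make up 14.7% of *Ltf* and 72.5% of *Lcn2*. In RPKM per exon length, *Ngp* was at 2411, 3858 and 2555 in mice 1.1, 1.2 and 1.4 and at 3198, 1448 and 3948 in mice 3.2, 3.3 and 3.5. In this order it ranked between the 4th and the 12th most abundant of the tested genes in each library. *Camp* followed at 159 (mouse 3.3) to 577 (mouse 3.2), *Lcn2* at 32.0 to 103, and *Ltf* at 0.739 (mouse 3.3) to 20 (mouse 1.2). *Mmp9* was at 0.919 to 17.8 and *Mmp8* at 0.620 to 8.36. The order *Ngp*, *Camp*, *Lcn2* and *Ltf* held in each of the 6 mice. The places of *Mmp8*, *Mmp9* and *Ltf* changed between mice, since *Ltf* was the lowest of the 6 genes in mouse 3.3 and *Mmp9* exceeded *Ltf* in mice 3.2 and 3.3. Reads across exon junctions are largely lost by an aligner that does not split reads. Counted over the exon positions where a whole read can start (61.2% of the exon length for *Camp* and 85.9% for *Lcn2*), the levels in mouse 1.1 were 3181 for *Ngp*, 519 for *Camp*, 38.6 for *Lcn2*, 28.8 for *Ltf*, 4.37 for *Mmp9* and 2.82 for *Mmp8*.

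**Figure D3:**
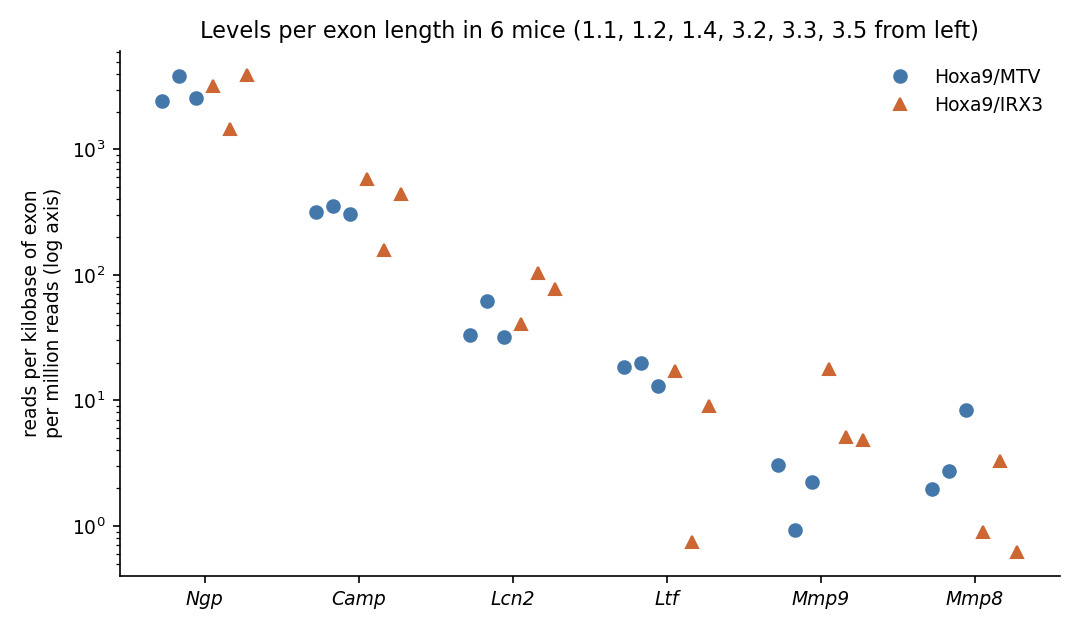
RPKM per exon length (vertical, log axis) of the 6 granule genes, with the 6 mice in a fixed order from left to right. *Ngp* is highest in every mouse, and *Ltf* of mouse 3.3 lies at 0.739.

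*Ngp* made up between 83.0% (mouse 3.2) and 89.7% (mouse 1.2) of the summed exon-length level of the 6 genes. The sum itself was 2785, 4300 and 2917 in the *Hoxa9*/MTV mice and 3851, 1719 and 4480 in mice 3.2, 3.3 and 3.5. *Ngp* transcripts thus dominated this gene group in both cohorts, and the lowest sum was that of mouse 3.3. *Ngp* exceeded *Camp* by 7.59, 10.8 and 8.34 times in the *Hoxa9*/MTV mice and by 5.54, 9.09 and 8.97 times in mice 3.2, 3.3 and 3.5. This ratio was lowest in mouse 3.2 and highest in mouse 1.2, and mouse 3.3, where both genes were low, lay between them. *Ngp* exceeded *Ltf* by 131 to 199 times in the *Hoxa9*/MTV mice and mouse 3.2, by 435 times in mouse 3.5 and by 1959 times in mouse 3.3. *Camp* exceeded *Lcn2* by 14.3 times in mouse 3.2 and by 1.55 times in mouse 3.3, with 5.68 in mouse 3.5. In proportion to one another, *Ltf* and *Lcn2* therefore varied more between the *Hoxa9*/*IRX3* mice than *Camp* and *Ngp* did.

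On log2(RPKM + 0.5), the SD within a cohort was larger in the *Hoxa9*/*IRX3* mice for *Ltf*, *Camp*, *Ngp*, *Lcn2* and *Mmp9*, and smaller for *Mmp8*. It was 0.28 and 1.18 for *Ltf*, 0.11 and 0.97 for *Camp* and 0.37 and 0.76 for *Ngp* in *Hoxa9*/MTV and *Hoxa9*/*IRX3* mice, and 0.52 and 0.68 for *Lcn2*, 0.73 and 0.54 for *Mmp8* and 0.39 and 0.86 for *Mmp9*. As the ratio of the highest to the lowest RPKM, *Mmp8* spread more in the *Hoxa9*/*IRX3* mice, at 5.29 against 4.27. The median SD over all tested genes was 0.12 and 0.24, so that a larger spread in *Hoxa9*/*IRX3* mice was general. Of all tested genes, 97.8% had a smaller SD than *Ltf* among the *Hoxa9*/*IRX3* mice, 96.0% a smaller SD than *Camp* and 93% a smaller SD than *Ngp*. Among the *Hoxa9*/MTV mice the corresponding share was 47.0% for *Camp*, but 88.0% for *Ltf* and 93.5% for *Ngp*. *Lcn2* and *Mmp8* stood higher among all genes in the *Hoxa9*/MTV mice (97% and 98.7%) than in the *Hoxa9*/*IRX3* mice (91% and 85.1%), and *Mmp9* was at 94.2% and 94.8%.

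*Ltf*, *Camp* and *Ngp*, which shared the low value in mouse 3.3, lie within a short stretch of chromosome 9. *Camp* and *Ngp* are 570 kb apart with 8 protein-coding genes between them, and *Ngp* and *Ltf* are 596 kb apart with 20. Between *Camp* and *Ltf* 12 genes were tested, *Ngp* among them, and 0 were called in either direction (limma; median log2 fold change -0.08). None of the tested genes next to them had its lowest value of all 6 mice in mouse 3.3. Among the *Hoxa9*/*IRX3* mice alone, mouse 3.3 was the lowest for *Nme6* and *Cdc25a*. Beside *Camp*, *Nme6* was read at 2.53, 1.91 and 2.04 RPKM in mice 3.2, 3.3 and 3.5 and *Cdc25a* at 10.1, 4.91 and 7.21 RPKM. Beside *Ngp*, *Klhl18* was read at 0.914, 0.840 and 0.807 RPKM and *Ptpn23* at 1.69, 1.39 and 0.900 RPKM. On the far side of *Ltf*, *Ccrl2* was read at 1.71, 1.88 and 4.73 RPKM, and *Rtp3*, on its near side, was listed at 0 in all 6 mice. *Mmp8* lies 102 Mb from *Camp* in the metalloproteinase cluster of the same chromosome, where its neighbor *Mmp10* was listed at 0 and *Mmp27* did not exceed 0.107 RPKM. The gene closest to *Lcn2*, *1110008P14Rik*, was read at 2.48, 1.79 and 3.33 RPKM in the *Hoxa9*/MTV mice, against 2.49, 4.11 and 4.04 RPKM in mice 3.2, 3.3 and 3.5. Like *Lcn2* it was highest in mouse 3.3, and it was not called (0.42, adjusted p = 0.341). On the other side of *Lcn2*, *Ptges2* was between 1.32 and 2.07 RPKM in all 6 mice. Next to *Mmp9*, *Slc12a5* stayed at or below 0.0232 RPKM, and *Zfp335* was lower in each *Hoxa9*/*IRX3* mouse than in each *Hoxa9*/MTV mouse without being called (-0.42, adjusted p = 0.338).

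The promoters of *Ltf*, *Camp* and *Ngp* are shown because they had their lowest value in the same mouse, 3.3, while their highest values were in different mice. Sequences are from RefSeq (GRCm38.p6), whose promoter table held 5 of the 6 genes and not *Mmp9*. The stretches lie before the annotated gene in chr9:111019042-111019270 (*Ltf*, plus strand), chr9:109849618-109849706 (*Camp*, minus strand) and chr9:110419558-110419746 (*Ngp*, plus strand), outside exons and introns. Each reads 5′ to 3′ on the strand of the gene. Capitals mark letters that match the C/EBP motif in its loose form TTNCNNAA on either strand or the GFI1 motif AAATCAC, which overlap at their edges in *Ltf*.

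Ltf: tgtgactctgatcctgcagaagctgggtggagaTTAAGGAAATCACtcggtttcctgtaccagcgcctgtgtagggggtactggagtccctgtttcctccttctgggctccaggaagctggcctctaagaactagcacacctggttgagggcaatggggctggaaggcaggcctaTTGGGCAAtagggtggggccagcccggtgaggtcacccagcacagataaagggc
Camp: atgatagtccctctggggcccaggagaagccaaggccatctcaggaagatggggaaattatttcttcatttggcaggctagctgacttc
Ngp: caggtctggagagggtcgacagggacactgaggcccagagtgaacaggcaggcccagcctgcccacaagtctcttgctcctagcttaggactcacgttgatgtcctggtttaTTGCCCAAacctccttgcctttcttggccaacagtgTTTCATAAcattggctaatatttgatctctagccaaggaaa

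In the 250 bases before the RefSeq start, the strict C/EBP letters TTGCNNAA were found in 4 of 5 promoters (*Ltf*, *Ngp*, *Lcn2* and *Mmp8*) and in 9.56% of all 32851 promoters. The window of *Lcn2* lies wholly inside the gene as GENCODE annotates it, those of *Ltf*, *Camp* and *Ngp* reach into it, and that of *Mmp8* lies outside. Every strict match is also a match of the loose form TTNCNNAA, which the same 4 promoters and 36.8% of all promoters held. The window of *Camp* held neither. *Ngp* had a strict match from base 138 to base 131 before the start and another, on the opposite strand, from base 11 to base 4, beyond the stretch shown. GFI1 letters were in *Ltf* and *Mmp8* (2.75% of all promoters) and PU.1 letters, GAGGAAGT, in *Mmp8* (2.44%). The letters TGTGGT (RUNX; 14.0% of all promoters), ACANNTGT (Iroquois factors; 6.31%) and TGATTTAT (HOXA9 with PBX; 0.837%) were in 0 of 5. Such matches describe the letters of these windows and do not show binding.

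Genes were then ranked by how closely their values over the 6 mice followed each granule gene, as the root mean square distance on centered log2(RPKM + 0.5) among the 2535 tested genes whose mean reached 5 RPKM. Nearest to *Ltf* was *Gm2a*, the GM2 activator of lysosomal lipid breakdown (distance 0.19). It was read at 46.8, 50.9 and 47.5 RPKM in the *Hoxa9*/MTV mice, against 38.9, 8.54 and 28.4 RPKM in mice 3.2, 3.3 and 3.5. Nearest to *Camp* was *Tnfrsf1a*, a TNF receptor (0.19), nearest to *Ngp* was *Asnsd1* (0.18), nearest to *Lcn2* was *Them6* (0.25) and nearest to *Mmp8* was *Eif4a2* (0.27). *Mmp9* had the most distant nearest gene, *Vegfa*, an angiogenic growth factor (0.36). *Vegfa* was read at 3.49, 3.07 and 4.16 RPKM in the *Hoxa9*/MTV mice, against 16.9, 5.82 and 11 RPKM in mice 3.2, 3.3 and 3.5 (log2 fold change 1.42, SE 0.36, adjusted p = 0.0723). Among the 6 genes themselves, *Camp* and *Ngp* were the closest pair (0.30) and *Ltf* and *Lcn2* the most distant (1.38). The mean centered profile of the 6 was highest in mouse 3.2 (0.36) and lowest in mouse 3.3 (-0.40), and the 5 genes closest to it (*Capza2*, *Rpl23*, *Rpl4*, *Fam53c* and *Rps2*) included 3 of ribosomal proteins.

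Other genes of specific and gelatinase granules were read beside the 6. Of 26 listed, 20 were tested, 1 was called higher and 0 lower (limma), with a median log2 fold change of -0.09 against -0.06 for all tested genes. The shares of all tested genes were 1.10% called higher and 2.03% called lower. The gene called higher was *Cd177*, a surface glycoprotein of specific granules and the neutrophil membrane. It was read at 14.3, 16.6 and 13.7 RPKM in the *Hoxa9*/MTV mice, against 35.9, 37.2 and 49.5 RPKM in the *Hoxa9*/*IRX3* mice. These cohorts did not overlap (log2 fold change 1.42, SE 0.17, adjusted p = 0.0107), and the call was lost without mouse 1.1, 1.2 or 1.4, with an adjusted p of up to 0.0712. The list gave 2 higher calls without mouse 3.3 or 3.5, and 1 higher and 1 lower without mouse 3.2. Its median was 0.34 without mouse 3.3, 0.00 without mouse 1.2, -0.38 without mouse 3.5, -0.15 without mouse 1.1 and -0.05 without mouse 3.2.

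In mouse 3.3, 9 of these 20 genes had the lowest value of the 6 animals, against 16.4% of all tested genes, and 3 had the highest, against 19.1%. In mouse 3.5, 2 had the lowest value, against 33.3% of all tested genes, and 8 the highest, against 14.1%. These counts were made after the values were seen. Those lowest in mouse 3.3 included *Fcnb* (ficolin B; 7.52, 1.37 and 2.25 RPKM in mice 3.2, 3.3 and 3.5), *Pglyrp1* (a peptidoglycan recognition protein; 22.8, 4.58 and 44.5 RPKM) and *Itgam* (the CD11b integrin chain; 2.90, 0.690 and 5.34 RPKM). *Chil3*, a chitinase-like protein, was at 176, 0.102 and 20.2 RPKM in mice 3.2, 3.3 and 3.5 against 11.8, 37.7 and 15.6 RPKM in the *Hoxa9*/MTV mice. Highest in mouse 3.3 were *Hp*, haptoglobin, at 193, 795 and 304 RPKM, *Chil1*, another chitinase-like protein, at 13.8, 39.0 and 15.9 RPKM, and *Orm1*, an acute phase lipocalin, at 1.03, 1.84 and 0.104 RPKM. *Hp* and *Chil1* did not overlap between the cohorts, yet neither was called (log2 fold change 1.22, adjusted p = 0.194, and 1.17, adjusted p = 0.125). Over the 20 genes, 4 did not overlap and were higher and 2 were lower, against 12.2% and 21.6% of all tested genes. The lower ones, *Lyz2* (-0.83, adjusted p = 0.104 by limma) and *Vamp2* (-0.78, adjusted p = 0.0653), were not called either. *Olfm4*, which marks a subset of neutrophils, reached 22.4 RPKM in mouse 3.2 and was at most 4.25 RPKM in the other mice.

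**Figure D4:**
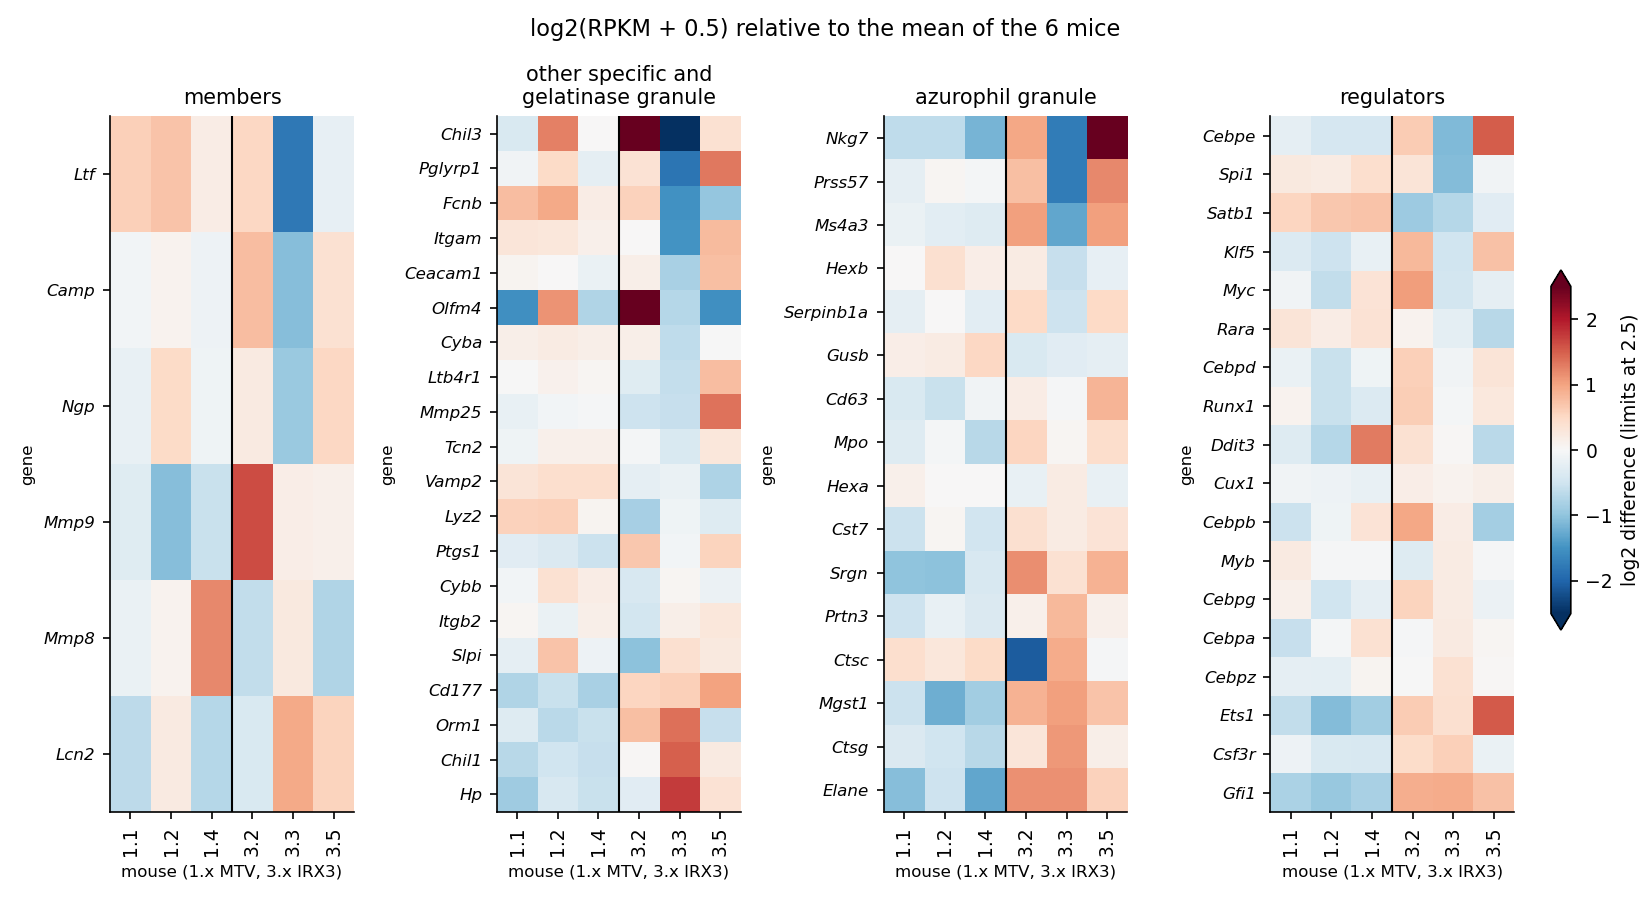
Difference of log2(RPKM + 0.5) from the mean of the 6 mice (color, limits at 2.5) for the tested genes of each list (rows, ordered by mouse 3.3) in each mouse (columns; a line separates the cohorts). *Ltf*, *Camp*, *Ngp*, *Fcnb*, *Pglyrp1* and *Itgam* are low in mouse 3.3, and *Elane* and *Gfi1* are high in all 3 *Hoxa9*/*IRX3* mice.

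Of the genes of the earlier azurophil granules, all 16 listed were tested, 3 were called higher and 0 lower (limma), and the median log2 fold change was 0.66. Over all tested genes 1.10% were called higher and 2.03% lower, with a median of -0.06. *Elane*, neutrophil elastase, was read at 715, 1053 and 614 RPKM in the *Hoxa9*/MTV mice, against 3324, 3332 and 2237 RPKM in the *Hoxa9*/*IRX3* mice. The cohorts were well separated, and mouse 3.3 was level with mouse 3.2 (log2 fold change 1.91, SE 0.26, adjusted p = 0.0144). *Srgn*, the serglycin core protein that packs granule proteases, was called higher (1.61, SE 0.26, adjusted p = 0.0257), as was *Mgst1*, a microsomal glutathione transferase (1.75, SE 0.19, adjusted p = 0.00851). The call of *Elane* was lost without mouse 1.1 or 1.4 (adjusted p up to 0.0812), that of *Srgn* without mouse 1.1, 1.2, 1.4 or 3.5 (up to 0.122) and that of *Mgst1* without mouse 1.4 (0.0616). *Elane* and *Srgn* were also not called without a filter on low values. The list gave 5 higher calls without mouse 3.3, and its median was 0.41 without mouse 3.5. *Ctsg*, cathepsin G, was read at 464, 418 and 368 RPKM and at 733, 1253 and 659 RPKM (1.03, adjusted p = 0.0741), and *Mpo*, myeloperoxidase, at 625, 752 and 482 RPKM and at 1135, 807 and 1060 RPKM (0.70, adjusted p = 0.115). Neither was called, though the cohorts did not overlap. Among the 16 genes, 8 did not overlap and were higher and 1 was lower, against 12.2% and 21.6% of all tested genes. The difference between the azurophil and the specific granule genes was not tested.

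Regulators of granule genes were read next. *Cebpe*, the factor required for specific granules, was at 32.5, 28.4 and 28.4 RPKM in the *Hoxa9*/MTV mice, against 59.5, 17.4 and 109 RPKM in mice 3.2, 3.3 and 3.5. Its lowest value was thus in mouse 3.3, as for *Ltf*, *Camp* and *Ngp*, and its other *Hoxa9*/*IRX3* values exceeded the *Hoxa9*/MTV cohort (log2 fold change 0.70, SE 0.61, adjusted p = 0.514). *Lcn2*, however, was highest in mouse 3.3. In mouse 3.5, where *Cebpe* was highest, *Ltf* lay below all *Hoxa9*/MTV mice. A link between *Cebpe* and the granule genes was not tested. *Spi1*, which encodes PU.1, was at 7.94, 2.71 and 5.86 RPKM in mice 3.2, 3.3 and 3.5 and between 7.30 and 8.58 RPKM in the *Hoxa9*/MTV mice (-0.57, adjusted p = 0.344). *Cebpa*, a factor of early granulocyte commitment, was between 110 and 213 RPKM in all mice without such a pattern (0.16, adjusted p = 0.727). *Cebpb* (0.21, adjusted p = 0.815) and *Cebpd* (0.55, adjusted p = 0.191) were not called.

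*Gfi1*, a repressor needed for neutrophil maturation, was at 28.4, 25.3 and 27.8 RPKM in the *Hoxa9*/MTV mice, against 92.7, 94.4 and 82.4 RPKM in the *Hoxa9*/*IRX3* mice. Its values were tight in both cohorts and did not set mouse 3.3 apart (log2 fold change 1.71, SE 0.13, adjusted p = 0.00298), and it was called with each of the 6 mice left out in turn. Of the 20 regulators 18 were tested, with 2 called higher and 1 lower (limma), against 1.10% and 2.03% of all tested genes. Their median was 0.27, against -0.06. The others called were *Ets1*, higher (1.71, adjusted p = 0.0304), and *Satb1*, lower (-1.28, adjusted p = 0.0185), and both calls were lost without mouse 1.1, 1.2 or 1.4 (adjusted p up to 0.136 and 0.105). *Ets1* was also not called without a filter or over all gene types, and *Satb1* with a pseudocount of 1. *Satb1* passed the filter only through the *Hoxa9*/MTV mice, where it was high. Without mouse 3.3 the list gave 4 higher calls, and without mouse 1.4 its median was 0.43.

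Families of the granule proteins were read as well. Of 23 matrix metalloproteinase genes 5 were tested, and 10 were listed at 0 in all mice. *Mmp19* was the most abundant per exon length, at 17.3 to 27.7, above *Mmp8* in each mouse. *Mmp28* (epilysin) was called lower, at 2.42, 2.01 and 1.30 RPKM against 0.0860, 0.517 and 0.562 RPKM (log2 fold change -1.46, SE 0.29, adjusted p = 0.0383), a call that held only without mouse 3.2 among the fits that omit a mouse (adjusted p up to 0.157). It was also not called with a pseudocount of 0.1, without a filter, with voom, per exon length or over all gene types. Of 7 genes that inhibit metalloproteinases, *Timp2* alone passed the filter, through mouse 3.5 at 1.91 RPKM against at most 0.308 RPKM in the others (0.74, adjusted p = 0.340, and 0.21 without that mouse). *Timp1*, which binds the gelatinase B precursor, had reads in mouse 3.3 only, at 0.0670 RPKM.

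In the lipocalin family 17 of 19 listed genes were found in the table, 3 were tested and 0 were called (limma; median 0.76, or 0.47 without mouse 3.3; 1 higher without mouse 3.5), and *Lcn2* was the only one above 2 RPKM in any mouse. Among 5 genes of transferrins and their receptors, *Trf*, serum transferrin, was called higher while *Ltf* was not. It was read at 1.49, 1.78 and 1.88 RPKM and at 4.64, 9.82 and 7.11 RPKM, with mouse 3.3 the highest (log2 fold change 1.74, SE 0.25, adjusted p = 0.0181, and up to 0.0968 without mouse 1.1, 1.2 or 1.4, each of which ended the call). Of 14 cystatin and cathelicidin genes 6 were tested and 0 were called (median -0.03, between -0.28 without mouse 3.2 and 0.23 without mouse 3.3, and 0.11 without mouse 1.2), and at a mean of at least 1 RPKM *Cst7* (0.64, adjusted p = 0.107) and *Cst3* (-0.42, adjusted p = 0.489) had the largest estimates. Below that level *Stfa2l1* was at -0.74 (adjusted p = 0.139). The stefins of mature neutrophils, *Stfa1*, *Stfa2*, *Stfa3* and *Stfa2l1*, did not exceed 0.616 RPKM, and as near-identical copies they can lose reads to the filter on alignment quality.

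Of 17 receptors and partners of the granule proteins 11 were tested, with 1 called higher, 1 lower and a median of -0.32. Over all tested genes these were 1.10%, 2.03% and -0.06. *Slc40a1*, the iron exporter ferroportin, was read at 0.680, 0.378 and 0.622 RPKM and at 8.0, 5.32 and 10.6 RPKM (log2 fold change 2.96, SE 0.25, adjusted p = 0.00356), and it was called with each mouse left out in turn. *Cd44*, which can hold MMP9 at the cell surface, was called lower, at 5.99, 6.15 and 5.62 RPKM and at 3.08, 1.71 and 2.09 RPKM (-1.23, adjusted p = 0.0214). That call was lost without mouse 1.1, 1.2, 1.4 or 3.5 (adjusted p up to 0.106), and 2 genes of the list were lower without mouse 3.2. The median of the list was -0.10 without mouse 3.3 and -0.59 without mouse 3.2. *Slc22a17*, a lipocalin 2 receptor, was at 0.212, 1.47 and 0.339 RPKM and at 0.0529, 0.0318 and 0 RPKM (adjusted p = 0.172). Of 20 genes for granule formation and release 16 were tested and 0 were called (limma; median 0.03, but -0.11 without mouse 3.2, 0.17 without mouse 3.3 and 0.07 without mouse 3.5), and the largest changes among those of at least 1 RPKM were those of *Rab44* (-0.70, adjusted p = 0.175) and *Hps1* (-0.51, adjusted p = 0.102). *Jagn1* had an estimate of the same printed size as *Hps1* in the other direction (0.51, adjusted p = 0.242).

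Late neutrophil genes gave 2 higher and 1 lower call among 17 tested of 20 listed (median 0.33). Over all tested genes, 1.10% were called higher and 2.03% lower (median -0.06). *Retnlg* was higher (log2 fold change 1.75, adjusted p = 0.0285), as was *Ly6g*, and *Anxa1*, which encodes a protein of gelatinase granules, was lower (-1.73, adjusted p = 0.0391). As given above, *Ly6g* passed the filter only through the *Hoxa9*/*IRX3* mice. *Retnlg* and *Ly6g* were not called without mouse 1.1, 1.2 or 1.4, and *Anxa1* was not called without these or mouse 3.3 (adjusted p up to 0.131, 0.102 and 0.154). *Retnlg* was also not called without a filter, with voom or over all gene types, and *Anxa1* without a filter, with median-of-ratios or quantile scaling or over all gene types. The list gave 3 higher calls without mouse 3.2, and its median was 0.05 without mouse 3.5, 0.63 without mouse 3.3, 0.54 without mouse 1.2 and 0.52 without mouse 3.2. *S100a8* was at 353, 438 and 320 RPKM and at 489, 405 and 1367 RPKM, and mouse 3.5 held the highest value of 9 of the 17 genes, against 14.1% of all tested genes. That mouse held the lowest value of 0 of the 17, against 33.3%, and mouse 3.3 that of 5, against 16.4%. Both mice were picked for these counts after the values were seen. Levels differed widely within the list, with *Mme* at 0 and *Fpr1* at or below 0.138 RPKM in all mice, *Cxcr2* at 1.28 to 10.2 RPKM and *Csf3r* at 6.20 to 12.9 RPKM.

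Markers of other cells were read because a change in the mixture of sorted cells would move bulk values. Of 16 monocyte and macrophage markers 8 were tested, 0 were called higher and 2 lower, *Cd68* (log2 fold change -2.68, adjusted p = 0.0135) and *Ccr2* (-2.06, adjusted p = 0.00843). Over all tested genes 1.10% were called higher and 2.03% lower, with a median of -0.06. The median of these markers was -1.42, and 6 of the 8 estimates were negative. Their summed level per exon length was 902, 972 and 936 in the *Hoxa9*/MTV mice and 706, 1365 and 1229 in mice 3.2, 3.3 and 3.5, most of it *Ly6c2*, a gene of the sorted Gr1 antigen. *C1qc* and *Marco* were listed at 0. The calls were lost without mouse 1.1 or 1.4, and that of *Cd68* also without mouse 1.2 (adjusted p up to 0.0803 for *Cd68* and 0.0549 for *Ccr2*). Without mouse 3.3, 4 genes of the list were called lower. Mouse 3.3, with low *Ltf*, *Camp* and *Ngp*, had *Irf8*, a monocyte and dendritic cell factor, at 63.1 RPKM against 2.61 and 2.98 RPKM in mice 3.2 and 3.5, and *Csf1r* at 6.43 RPKM against 0.790 and 0.552 RPKM. In the *Hoxa9*/MTV mice *Irf8* was at 39.6, 27.0 and 25.5 RPKM and *Csf1r* at 5.82, 4.77 and 5.94 RPKM. Other genes of the list did not follow this pattern. *Ccr2* was at 4.99, 3.69 and 6.48 RPKM in mice 3.2, 3.3 and 3.5 and *Cd68* at 13.1, 18.3 and 6.71 RPKM, each below all *Hoxa9*/MTV mice (18.7 to 26.3 and 67.9 to 87.3 RPKM). *Cd14* was at 50.8, 2.45 and 10.7 RPKM, against 8.47 to 17.2 RPKM in the *Hoxa9*/MTV mice. The part of monocytes in the granule gene values was not tested.

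Mouse 3.3 also had the lowest sums for dendritic and MHC class II markers and for eosinophil markers. The dendritic and MHC class II sum was 26.4, 21.6 and 32.5 in the *Hoxa9*/MTV mice and 6.81, 0.774 and 28.1 in mice 3.2, 3.3 and 3.5, with *H2-Ab1* as the most abundant gene. Among 4 tested of 9 listed (median -0.74, or -1.25 without mouse 3.5), *Flt3* was called lower (-1.35, adjusted p = 0.0102, and up to 0.0712 without mouse 1.1 or 1.4, which ended the call, as did a pseudocount of 1). *Flt3* passed the filter only through the *Hoxa9*/MTV mice, where it was high. The share called lower over all tested genes was 2.03%. The eosinophil sum was 30.7, 40.1 and 41.9 and then 37.1, 0.622 and 30.9, nearly all of it *Siglec5* (Siglec-F; -1.41, adjusted p = 0.447), whereas the granule genes *Epx* and *Ear1* and the receptors *Ccr3* and *Il5ra* were listed at 0, and 0 of the 4 tested of 9 were called (limma; median -0.12, between -0.34 without mouse 3.2 and 0.25 without mouse 3.3). Other eosinophil granule genes were read at low levels, with *Prg2* at most at 0.424, *Prg3* at 0.547, *Ear2* at 0.897 and *Ear6* at 0.597 RPKM. The part of dendritic cells in the granule gene values was not tested.

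Mast cell and basophil markers summed to 64.8, 60.5 and 85.7 and to 15.3, 25.1 and 22.7, led by *Mcpt8*, with *Fcer1a*, *Cma1* and *Tpsb2* at 0. Of 5 tested of 10 (median -1.21), *Gata2* (-2.62, adjusted p = 0.0166) and *Cpa3* (-1.40, adjusted p = 0.0432) were called lower. The share called lower over all tested genes was 2.03%, and their median was -0.06. *Ms4a2* lay higher in each *Hoxa9*/*IRX3* mouse than in each *Hoxa9*/MTV mouse and was not called (0.66, adjusted p = 0.103). *Gata2* was not called without mouse 1.1, 1.2 or 1.4 (adjusted p up to 0.0892) or with voom, and *Cpa3* was called only without mouse 1.2 among the fits that omit a mouse (up to 0.157). *Cpa3* was also not called with a pseudocount of 1, without a filter, with array weights, with voom or over all gene types. It passed the filter only through *Hoxa9*/MTV mice, where it was high. Of 10 B cell markers 3 were tested (median 1.08, or 0.41 without mouse 3.5) and *Cd79b* was called lower (-2.65, adjusted p = 0.0383, with the call kept only without mouse 3.5 and up to 0.155 otherwise). *Cd79b* was also not called with a pseudocount of 0.1, without a filter, with median-of-ratios or quantile scaling or over all gene types, and 1 gene of the list was higher without mouse 3.2. *Pax5* and *Ms4a1* were at 0, and *Igll1* of early B cells was at 1.19, 9.11 and 38.4 RPKM in mice 3.2, 3.3 and 3.5 against at most 0.102 RPKM (3.92, adjusted p = 0.0776). *Igll1* passed the filter only through the *Hoxa9*/*IRX3* mice. The B cell sum was 15.6, 17.3 and 17.7 and then 4.10, 15.5 and 69.8.

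Markers of T and NK cells stayed under 1 RPKM for all 10 genes, and 0 were tested. Of 11 erythroid markers *Car2* alone was tested (0.84, adjusted p = 0.123; called higher without mouse 3.3), and the globin genes *Hba-a1*, *Hba-a2* and *Hbb-bt* were listed at 0, where near-identical copies lose reads. Of 10 bone marrow stroma markers only *Pecam1*, which leukocytes also express, was tested (0.18, adjusted p = 0.887), with 0.96 without mouse 3.2, 0.03 without mouse 3.3 and -0.45 without mouse 3.5.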

How the data were processed

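RNA of sorted leukemia cells of 6 mice was sequenced with paired reads of 75 bases from strand-specific polyA libraries (200 ng of RNA, 14 cycles of amplification). The authors aligned reads to GRCm38 with Bowtie2 2.2.1, filtered alignments with SAMtools 0.1.19 and deposited RPKM, 1 value per gene in each library. That the RPKM divide by the whole gene span was inferred from the recovered reads described below. Bowtie2 does not split reads at introns, so reads across exon junctions are largely lost. The submitters' processing notes name these tools. No per-sample column was left unused (0).

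Reads were recovered from the steps between RPKM values with gene positions of GENCODE M21. They were whole, within 0.01 of a read, for 95.7% of tested genes, on the annotated span for 6185 genes and on a nearby length for 2924. Reads of genes summed to between 103.9% and 105.1% of the library size that the RPKM imply, and the reason was not tested.

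Cohorts were compared on log2(RPKM + 0.5), which understates changes of weakly expressed genes, in R 4.3.3. The linear models came from limma 3.58.1, with moderated variances that follow a trend on the mean level, and p-values were adjusted after Benjamini and Hochberg over 9522 genes. All adjusted p-values are from limma. The fit was tested on simulated data, and no error rate from that test is given here. Fold changes are *Hoxa9*/*IRX3* minus *Hoxa9*/MTV. Other pseudocounts, filters, scalings, weights and lengths, voom on recovered reads, all gene types and the omission of each mouse were tried. The rest used pandas 2.3.3, numpy 2.4.6 and matplotlib 3.10.9 under Python 3.11.15.

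The members and the 20 other gene lists were chosen with earlier results of these data known. Named are all 6 members in each mouse, the called genes of each list or else the 2 largest changes at a mean of at least 1 RPKM, set regulators, genes of the nearest pattern and neighbors. Others were named after their values were seen.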

Additional observations from a re-analysis of the deposited data

How the results depend on the processing

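None of the 6 granule genes was called under any of the 11 other settings or with any of the 6 mice left out (limma). *Mmp8* has no value with the filter over 1 RPKM in at least 3 libraries, which it did not pass. Among the fits that omit 1 mouse, the log2 fold change ranged from -1.49 to -0.34 for *Ltf*, from -0.30 to 0.62 for *Camp*, from -0.42 to 0.31 for *Ngp*, from 0.47 to 1.13 for *Lcn2*, from -1.06 to -0.33 for *Mmp8* and from 0.79 to 1.55 for *Mmp9*. *Camp* turned negative without mouse 3.2 (-0.30) or 3.5 (-0.10), and *Ngp* turned positive without mouse 1.2 (0.09) or 3.3 (0.31). Under the other settings none of the 6 reversed, but *Ngp* was at -0.64 with quantile normalization, against -0.13, and *Camp* was at 0.00 with array weights. The adjusted p of *Mmp9* was between 0.113 and 0.218 under these settings and between 0.104 and 0.35 with 1 mouse omitted.

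The count of genes called higher was 66 with a pseudocount of 1, 66 without a filter (14755 genes tested) and 239 per exon length (11855 genes tested), against 105. The count called lower was 109 without a filter and 313 per exon length, against 193. With each mouse left out, 24 to 152 genes were called higher and 37 to 257 lower. Of 20 listed genes called, 2 (*Gfi1* and *Slc40a1*) were called with every mouse left out in turn. All 20 kept an estimate of at least 2-fold in these fits, so that lost calls were lost on the adjusted p. *Ltf* in mouse 3.3 and *Mmp8* in mice 3.2 and 3.5 rest on 25 reads or fewer, which limits the precision of their values.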
